A study of Homo sapiens with 2 samples.

Results

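G-quadruplex (G4) peaks at protein-coding promoters of wild-type HEK293T cells were selected by sequence. A peak of the wild-type (WT) list was taken when it lay off the mitochondrial sequence (MT), when its interval came within 1 kb of a transcription start site of any protein-coding transcript in GENCODE release 44 (hg38), and when it held a G4 motif inside its interval. A G4 motif was 4 or more runs of at least 3 G on the same strand, joined by loops of 1 to 12 bases. Of the 515 WT peaks, 437 lay at protein-coding promoters and off MT, and 276 of these held a motif. These 276 members made up 53.6% of the WT list and 63.2% of its protein-coding promoter peaks (exact Clopper-Pearson 95% interval 58.4 to 67.7). The other 161 promoter peaks held no such motif and serve as the comparison. Their shares and medians are given beside those of the members without a test, since peaks of a single list are not replicates.

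The peaks came from CUT&Tag, which uses an antibody to bring the Tn5 transposase to a chromatin target so that nearby DNA is cut and tagged for sequencing. The series' design text names ATAC, an assay of open chromatin, whereas its title and the sample protocols name CUT&Tag. One list came from HEK293T, an established human embryonic kidney line, with the genotype WT. The other came from HEK293T cells labelled DNMT1_KO with the genotype DNMT1_MUT, called DNMT1-KO here; DNMT1 is the maintenance DNA methyltransferase. According to the study the DNMT1-KO cells were a single CRISPR-edited clone in which both alleles carry an in-frame insertion, so a property of that clone and the loss of DNMT1 cannot be told apart. No agent was applied in either group, and each group had 1 deposited peak list, so no test was made between the genotypes. The DNMT1-KO list held 92 peaks. Both lists are far shorter than the peak sets the study describes for these cells, so overlaps and absences below hold for these lists only. The sample titles name the antibody BG4, whereas the peak names of both lists carry the token 1H6, and the antibody behind the lists was not settled.

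A G4 is a stacked structure of guanine tetrads that a single strand with several G runs can form, with the bases between the runs looped out. G4s have been mapped mostly to open, CpG-rich promoters, where the complementary strand is C-rich. At a gene, G runs may lie on the non-template strand, which has the sequence of the RNA, or on the template strand, which the polymerase reads. CpG dinucleotides are the sites of DNA methylation in mammals, and CpG islands are stretches where they have been kept at high density, usually free of methylation.

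The sequences below are motifs from the strongest members and from those that mark the range of the set. Each was read from hg38 and is written 5′ to 3′ on its G-rich strand, in lower case, with capitals for the G runs of the motif. The TOMM40 window shows a short motif with 40 bases on each side, on the plus strand at chr19:44891013-44891109. Its motif lies at chr19:44891053-44891069, upstream of the gene that encodes the pore of the mitochondrial outer membrane translocase, and its centre is 3 bp from the WT summit.
TOMM40 window: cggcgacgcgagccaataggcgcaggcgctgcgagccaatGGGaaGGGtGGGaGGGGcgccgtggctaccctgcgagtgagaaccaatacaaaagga
The next 5 are motifs of members that stood high in the WT list. They lie at chr1:235328503-235328532, plus strand, upstream of GGPS1 (an enzyme that makes geranylgeranyl diphosphate); at chr16:30658393-30658422, plus strand, upstream of FBRS; at chr1:150629361-150629402, minus strand, in an intron of ENSA (a regulator of the phosphatase PP2A); at chr10:74826375-74826411, plus strand, upstream of KAT6B (a histone acetyltransferase); and at chr17:4967588-4967623, plus strand, in an intron of SPAG7. The first 4 carry their G runs on the non-template strand of the gene named. The SPAG7 motif carries them on the template strand.
GGPS1: GGGGGcGGGGGGGaggtgaaaGGGGcGGGG
FBRS: GGGGGtgaGGGGaaGGGGGcggagcgtGGG
ENSA: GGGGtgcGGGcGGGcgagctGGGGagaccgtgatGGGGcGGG
KAT6B: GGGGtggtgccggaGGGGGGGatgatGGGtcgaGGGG
SPAG7: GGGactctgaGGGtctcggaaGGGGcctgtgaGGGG
Arrays of motifs are shown by 3 of the 9 motifs in the intronic peak of CELF5 (an RNA-binding protein of the CELF family), at chr19:3285285-3285321, chr19:3285664-3285687 and chr19:3285767-3285805, all on the minus strand and so on the template strand, and by the longest motif of PLAUR (the urokinase receptor), at chr19:43668567-43668676, minus strand, intronic and non-template. The longest motif of the whole set, of 204 bases and 29 G runs, lies upstream of LSS (lanosterol synthase) at chr21:46229000-46229203, plus strand and template.
CELF5 motif a: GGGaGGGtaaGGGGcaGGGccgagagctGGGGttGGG
CELF5 motif b: GGGGcGGGGaaGGGGGGGtGGGGG
CELF5 motif c: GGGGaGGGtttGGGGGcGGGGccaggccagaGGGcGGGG
PLAUR: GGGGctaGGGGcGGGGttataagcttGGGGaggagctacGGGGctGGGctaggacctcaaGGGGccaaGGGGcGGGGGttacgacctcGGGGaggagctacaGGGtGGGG
LSS: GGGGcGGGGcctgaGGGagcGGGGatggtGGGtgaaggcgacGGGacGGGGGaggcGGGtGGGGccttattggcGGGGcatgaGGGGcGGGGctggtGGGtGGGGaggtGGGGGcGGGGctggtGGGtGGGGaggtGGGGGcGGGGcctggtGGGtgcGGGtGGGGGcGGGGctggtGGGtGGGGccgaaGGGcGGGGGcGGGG
At the other end, the rule admits long uninterrupted G runs, because a loop may itself be G. The motif at chr17:21043300-21043315 (minus strand, non-template) near the start of USP22, a deubiquitinase of the SAGA complex, is a single run of 16 G. The motif at chr15:74873427-74873450 (minus strand, non-template) upstream of SCAMP2 holds a run of 20 G, the longest of the set.
USP22: GGGGGGGGGGGGGGGG
SCAMP2: GGGcGGGGGGGGGGGGGGGGGGGG
The paralogs EOLA1 and EOLA2 share a motif letter for letter, at chrX:149539745-149539770 on the minus strand and chrX:149940042-149940067 on the plus strand, in both cases on the template strand upstream of the gene. Reads from such copies may not be placed uniquely, and how the authors treated them is not given in the sources used here.
EOLA1 and EOLA2: GGGagcagatGGGGcGGGGctgcGGG

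The members were moderate peaks. Their lengths ran from 322 to 1321 bp with a median of 460.5 bp, and their fold enrichment (the authors' ratio of fragments at the summit to local background) ran from 3.56 to 11.4 with a median of 6.45. The number of fragments over the summit, recovered from the deposited fold enrichment and p-value and called the pileup here, ran from 12 to 115 with a median of 27. Promoter peaks without a motif had a median length of 412 bp, a median fold enrichment of 6.50 and a median pileup of 25. The peaks with and without a motif were thus nearly alike in signal and differed in length. The share of promoter peaks with a motif was 31 of 62 at up to 350 bp, 60.5% (98 of 162) above 350 and up to 450 bp, 65.3% (81 of 124) above 450 and up to 600 bp, and 74.2% (66 of 89) above 600 bp. Longer intervals hold more sequence in which a motif can occur, so length moves with membership throughout.

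The highest fold enrichments belonged to ENSA (11.4), TOMM40 (11.4), FBRS (10.5), GGPS1 (10.3) and PLAUR (10.1). CCDC66 (9.87), IQUB (9.71), ZDHHC5 (9.52), CRYZL1 (9.50) and RABGAP1 (9.39) followed. CCDC66 is a centrosomal protein, ZDHHC5 a palmitoyltransferase and RABGAP1 a GTPase-activating protein for Rab proteins. Fold enrichment and pileup ordered the members differently. BRD2, a bromodomain protein that reads acetylated histones, had a pileup of 94 on a local background of 21.7 and a fold enrichment of only 4.18, whereas IQUB reached its fold enrichment with 20 fragments.

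Near the 1 kb limit, the farthest members from a start site were an EOLA2 peak, whose interval began 645 bp away, and a DLG4 peak at 614 bp. Beyond the limit, a motif-holding peak lay 1639 bp from SEMA6B, with a pileup of 44. No motif-holding peak lay just inside or just outside 1 kb.

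A motif occurred once in 149 members, and 127 members (46.0%) held 2 or more. There were 68 members with 2 motifs, 32 with 3, 13 with 4 and 14 with 5 or more, 526 motifs in all or 3.69 per kb of interval. KPNB1, which encodes the nuclear import receptor importin beta, held the most with 10, of which 9 lay on the template strand and 1 on the non-template strand. CELF5 and EOLA1 each held 9, all on the template strand. GARNL3 held 8, all on the non-template strand, and EOLA2 held 8 in its upstream peak, all on the template strand. MATN1 (matrilin-1, a cartilage matrix protein), named after its values were seen, held 7 non-template motifs. Motif arrays of a single strand thus occurred in both orientations. Members with 3 or more motifs were longer (median 551 bp) than those with 1 motif (430 bp), and their median pileup was 31 against 24. Their median fold enrichment was 6.18 against 6.61. Motif number therefore went with length and pileup but not with higher fold enrichment. The median motif was 34 bases long with 4 G runs, and 303 of the 526 motifs (57.6%) also met the stricter definition with loops of 1 to 7 bases. A run of at least 5 G occurred in 254 motifs (48.3%).

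Most members sat over the start site of their gene. The interval covered a start site in 197 members (71.4%, 65.7 to 76.6), and the summit lay within 100 bp of the nearest start site in 128 (46.4%) and within 250 bp in 215 (77.9%). The corresponding shares for promoter peaks without a motif were 68.9%, 41.0% and 77.6%. Summits were upstream of the start site in 146 members (52.9%), with a median position of -9.5 bp. Of the 526 motif centres, 322 (61.2%, 56.9 to 65.4) lay upstream of the nearest start site, with a median of -31.3 bp, and 319 (60.6%) lay within 200 bp of it. The covered sequence lay upstream to a similar degree: within 500 bp of the canonical start site, 58.5% of covered bases and 177 of 288 motif centres (61.5%, 55.6 to 67.1) were upstream. By the canonical transcript of the gene, 304 motif centres (57.8%) were upstream of the gene, 184 (35.0%) were in an intron, 26 (4.94%) in the 5'UTR and 12 (2.28%) in a coding exon.

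Motif density varied little with distance from the summit. Per kb of interval there were 3.97 motif centres within 50 bp of the summit, 3.62 from 50 to 100 bp, 3.61 from 100 to 200 bp, 3.42 from 200 to 300 bp and 3.91 farther out. A motif covered the summit in 46 members (16.7%) and lay over or within 100 bp of it in 176 (63.8%, 57.8 to 69.4). The remaining 100 members held their motifs only farther from the point of highest signal. SPAG7 and ENSA are examples of the first kind, with motif centres 15 and 19 bp from the summit. ZDHHC5 is one of the second kind, with its only motif centred 373 bp away.

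**Figure D1:**
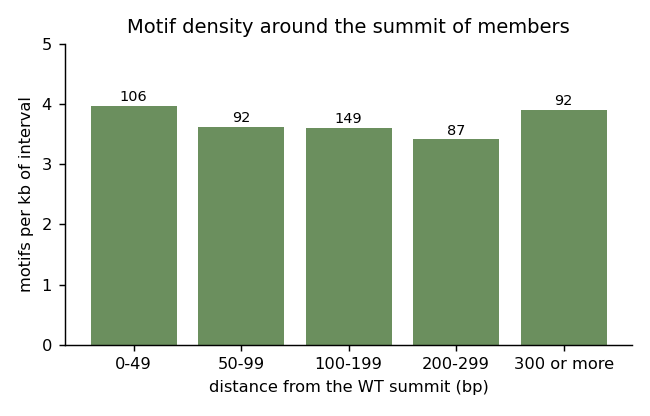
Density of G4 motif centres in the 276 members by distance from the WT summit, in motifs per kb of peak interval lying at that distance; the number above each bar is the count of motif centres. The bars lie between 3.42 and 3.97 motifs per kb and are highest within 50 bp of the summit, by a small margin.

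Strand was read in the 214 members whose protein-coding genes within 1 kb all point the same way. The other 62 members (22.5%, 17.7 to 27.8) had start sites of both orientations, as did 56 of the 161 promoter peaks without a motif (34.8%, 27.5 to 42.7). In the 214 members, 250 of 426 motifs (58.7%, 53.9 to 63.4) had their G runs on the non-template strand. At least 1 non-template motif occurred in 149 members (69.6%, 63.0 to 75.7): 110 held motifs on that strand only, 65 on the template strand only and 39 on both.

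The share of non-template motifs was higher on the downstream side of the start site. Motif centres upstream of the nearest start site were non-template in 141 of 264 cases (53.4%, 47.2 to 59.5), and downstream ones in 109 of 162 (67.3%, 59.5 to 74.4). By annotation, intronic motifs were non-template in 122 of 158 cases (77.2%, 69.9 to 83.5) and motifs upstream of the gene in 118 of 244 (48.4%, 41.9 to 54.8). Exonic motifs were few, with 5 of 15 non-template in the 5'UTR (33.3%, 11.8 to 61.6) and 5 of 9 in coding exons (55.6%, 21.2 to 86.3). In members with a single motif the intervals overlap widely, at 42 of 70 upstream (60.0%, 47.6 to 71.5) and 27 of 40 downstream (67.5%, 50.9 to 81.4) of the nearest start site. Measured from the canonical start site, which leaves 193 members with 1 start site to measure from, the share within 500 bp was 48.0% upstream (85 of 177) and 76.6% downstream (85 of 111, 67.6 to 84.1). The same search across the protein-coding promoters of the genome with 1 orientation, 17238 in number, gave 51.2% upstream and 60.0% downstream. Restricting it to CpG-island-like promoters (defined below) gave 51.3% and 59.9%. An excess of non-template motifs downstream was thus also present over all promoters, below the interval of the members. Upstream, the members' interval (40.5 to 55.6) included the share of all promoters.

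Members with several motifs weigh more in these shares. With each member counted once, downstream motifs on a single strand were non-template in 54 of 69 members (78.3%, 66.7 to 87.3), against 65.1% of the 7460 promoters of the same kind. At the members' own genes, motifs within 1 kb downstream of the start site were non-template in 76.7% of cases inside the peak interval (89 of 116, 68.0 to 84.1) and in 65.5% outside it (324 of 495, 61.1 to 69.6), and these intervals overlap slightly. Upstream, the corresponding shares were 45.4% and 46.4%. Measured instead from the nearest start site of any transcript, genes with non-template motifs downstream include MATN1, RABGAP1 and ENSA. By that measure, template motifs lay downstream at CELF5, SPAG7 and ACTR1A, which encodes a subunit of the dynactin complex.

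By distance, non-template motifs in members peaked from 200 to 300 bp downstream, at 4.48 per kb of covered sequence (32 motifs) against 1.80 per kb in all promoters. Template motifs were at 0.700 per kb there (5 motifs) against 1.08. From 100 to 200 bp downstream, template motifs were at 0.440 per kb (4 motifs) against 1.07. Farther downstream they were at 1.07 per kb from 300 to 400 bp (5 motifs) against 1.04, and at 1.74 per kb from 400 to 500 bp (5 motifs) against 0.906. Within the first 100 bp downstream both strands were low in members (0.955 and 0.743 per kb) and in all promoters (0.980 and 0.767 per kb). Members were chosen for holding a motif, so a density above that of all promoters follows from the rule, and only the balance between the strands can be read. Single bins hold few motifs and are given as a description.

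**Figure D2:**
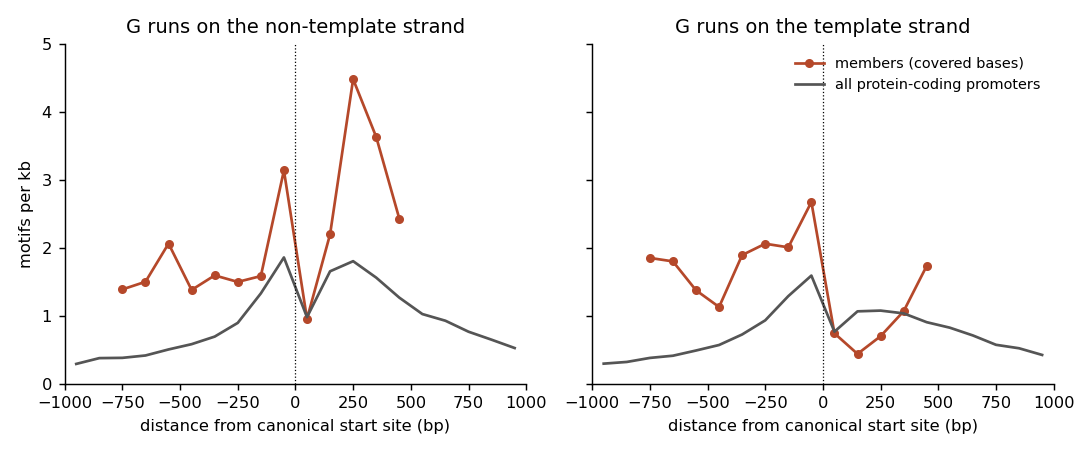
Motifs per kb by distance of the motif centre from the canonical start site, in bins of 100 bp, with G runs on the non-template strand on the left and on the template strand on the right. Red points are members, per kb of sequence covered by their intervals, for bins with at least 2000 covered bases; grey lines are all protein-coding promoters with 1 orientation. Downstream of the start site the red points rise to 4.48 per kb on the non-template strand and stay at or below 1.74 per kb on the template strand.

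The members were CpG-rich. GC content had a median of 64.6% (46.2 to 77.1%), and the ratio of observed to expected CpG had a median of 0.775, from 0.101 to 1.13. Because motifs are themselves made of G, both were recomputed with motif bases left out, which gave medians of 62.6% and 0.796. Promoter peaks without a motif had a median GC content of 57.9% and a median CpG ratio of 0.797. Outside the motifs as well, the median GC content was higher in the members, at a CpG ratio that was nearly the same. This held in each class of length: the median GC content outside motifs was 65.6, 63.6, 61.3 and 60.7% in members from the shortest to the longest class, against 60.5, 59.7, 59.1 and 56.2% in peaks without a motif.

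CpG-island-like intervals, with at least 200 bp, a GC content of at least 50% and a CpG ratio of at least 0.6, made up 242 of the 276 members (87.7%, 83.2 to 91.3) and 126 of the 161 peaks without a motif (78.3%, 71.1 to 84.4). Here the whole interval was used, motif bases included, so the motifs themselves enter the GC content of the members. Of the members with 3 or more motifs, 45 of 59 (76.3%) were CpG-island-like, compared with 132 of 149 (88.6%) of those with 1 motif and 65 of 68 (95.6%) of those with 2, so the share did not follow motif number in order. The lowest CpG ratios belonged to LMTK3 (0.101, with 3 motifs, all non-template) and CDC42EP1 (0.210), and the highest to SIVA1 (1.13), a pro-apoptotic gene, with 3 template motifs. These were picked after their values were seen. At least 1 CpG lay inside 476 of the 526 motifs (90.5%, 87.7 to 92.9), and 147 (27.9%) held 4 or more. The TOMM40, CCDC66 and TMBIM6 motifs hold none, as the letters of the TOMM40 window show.

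**Figure D3:**
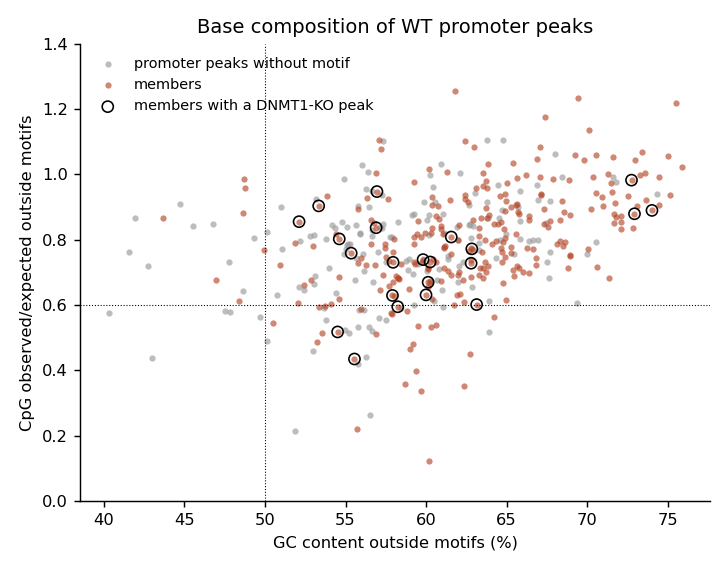
CpG observed/expected ratio against GC content for each WT promoter peak, both without motif bases; red points are the 276 members, grey points the 161 promoter peaks without a motif, and black circles the 22 members with a DNMT1-KO peak. Dotted lines mark a GC content of 50% and a ratio of 0.6. The sets overlap over most of their range, and the median GC content is 62.6% in members against 57.9%, at similar ratios.

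Windows of 460 bp centred on the canonical start sites of 20015 protein-coding genes placed these values in the genome. A motif occurred in 61.7% of all windows, in 73.8% of the 13524 CpG-island-like windows and in 66.4% of the windows of the 578 genes with a WT peak. Windows of genes with a WT peak were CpG-island-like in 91.7% of cases, against 67.6% of all windows. The share of windows with a motif at genes with a peak thus lay between that of all promoters and that of CpG-island-like promoters.

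Short promoter elements were counted in the same intervals on both strands. GGGCGG, the core of the GC box bound by SP and KLF factors, can overlap a G4 motif because it holds a run of 3 G. It occurred in 84.4% of members (233 of 276), 63.4% of promoter peaks without a motif, 68.5% of all windows and 88.2% of CpG-island-like windows. It lay inside 261 of the 526 motifs (49.6%). Outside their motifs, members still held it in 69.6% of cases, at 3.04 per kb against 2.30 per kb in peaks without a motif. CCAAT occurred in 51.1% of members, 53.4% of peaks without a motif, 41.5% of all windows and 38.4% of CpG-island-like windows. For CCGGAAG, an ETS-type element, the shares were 19.9, 19.9, 16.1 and 21.5% in the same order. TATAAA was found in 5.80% of members, 9.32% of peaks without a motif, 10.9% of all windows and 4.71% of CpG-island-like windows. The windows had 460 bp whereas the intervals varied in length, so shares of intervals and of windows are not strictly alike. In the windows of the 357 genes within 1 kb of a member, the shares were 81.8% for GGGCGG, 48.7% for CCAAT, 19.3% for CCGGAAG and 3.92% for TATAAA. These are matches of letters and not binding sites.

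The members were spread over 23 chromosomes and had 357 distinct protein-coding genes within 1 kb. Chromosome 19, which is rich in genes and in GC, held 43 members, or 29.1 per 1000 protein-coding genes, against 13.8 per 1000 over all chromosomes. Chromosome 1 held 36 (17.5 per 1000), and chromosome 17 held 14 (11.8 per 1000). Chromosome X held 9 (10.5 per 1000) and chromosome 18 only 2 (7.52 per 1000).

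Gene functions were described with 16 lists of gene families and processes, beside the 1.78% of all 20020 protein-coding gene names (357) that had a member. Chromatin regulators had a member at 8 of 117 genes (6.84%): the histone acetyltransferase genes KAT6B (pileup 52), KAT8 (20), the deacetylase gene HDAC6 (19), SETD5 (46) and KMT2E (37) of the SET-domain family, BRD2 (94), and the ARID-domain genes ARID4A (23) and ARID4B (115). The ARID4B and ARID4A peaks lie nearer to the start sites of GGPS1 and ARMH4. Factors of RNA processing had 7 of 168 (4.17%), among them the hnRNP genes HNRNPA1 (51), HNRNPU (36), HNRNPH3 (28) and HNRNPK (24), the RNA helicase gene DDX21 (33) and the splicing factor gene PRPF31 (20). Promoter peaks without a motif stood at 12 further genes of this list (7.14%) and at 1 chromatin regulator (0.855%), beside 1.1% of all genes.

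Translation factors had a member at 5 of 71 names (7.04%): EIF5A (pileup 36), EIF4B (32), EEF1A1 (29), EIF2S3 (15) and EEF2KMT (29), the last being a methyltransferase that modifies an elongation factor. Chaperones had 5 of 86 (5.81%), of which HSPD1, HSPE1 and the readthrough gene HSPE1-MOB4 share a single peak with a pileup of 30 between the divergent genes of the mitochondrial chaperonin. HSP90B1 had a pileup of 23 and CCT7 one of 25. GC-box factors had 2 of 27, namely SP1 (31, with 3 motifs) and SP4 (18). Ubiquitin and proteasome genes had 12 of 398 (3.02%), led by USP5 (fold enrichment 8.31), PSMG1 (8.14), FBXO5 (8.02), TRIM23 (7.71) and USP22 (7.52). Zinc finger genes had 15 of 608 (2.47%), led by ZNF837 (8.74), ZBTB3 (8.42), ZNF566 (7.87), ZBTB37 (7.77) and ZNF131 (7.71). One of the 15, ZBTB8OS, is in the list by name only. Promoter peaks without a motif stood at 4 translation factor names (5.63%) and 3 chaperones (3.49%). They stood at 5 ubiquitin and proteasome genes (1.26%), 2 zinc finger genes (0.329%) and 0 GC-box factors.

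Ribosomal protein genes had 3 of 86 (RPS19, RPL21 and RPL32), histones 3 of 93 (H3-3B, and H3C1 with H4C1 at a shared peak), cell cycle names 3 of 89 (CDK1, CDC25C and CDC42EP1, the last a CDC42 effector and not a cell cycle gene) and solute carriers 4 of 373 (SLC27A1, SLC25A26, SLC25A6 and SLC19A2). The CDC25C and H3-3B peaks lie nearer to the start sites of FAM53C and UNK. The mitochondrial ribosomal protein list had 1 of 78 (MRPL18), the transcription machinery 1 of 119 (POLR1C, a subunit of RNA polymerases I and III) and immediate early genes 1 of 24. That gene was EGR1, a zinc finger transcription factor, with 2 template motifs upstream of its start site, centred at -710.5 and -619.5 bp, and a pileup of 31. Promoter peaks without a motif stood at 5 ribosomal protein genes (5.81%), 4 histone genes (4.3%), 1 cell cycle name (1.12%) and 4 solute carriers (1.07%). They stood at 3 genes of the transcription machinery (2.52%), 1 of the mitochondrial ribosomal list (1.28%) and 0 immediate early genes. Of 19 genes whose promoters are textbook cases of G4-forming sequence, MYC, VEGFA and TERT among them, 0 had a member or a promoter peak without a motif. Olfactory receptor genes had 0 of 416. A gene with no peak in a list of called peaks may still have signal under the threshold, so these zeros describe the list and not the promoters.

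The DNMT1-KO list was then searched for the same places. Of the 276 members, 22 overlapped a DNMT1-KO peak by at least 1 bp (7.97%, 5.06 to 11.8), beside 11.7% of all WT peaks and 6.64% of WT protein-coding promoter peaks. Promoter peaks without a motif overlapped in 7 of 161 cases (4.35%, 1.77 to 8.75). The intervals of the members and of the peaks without a motif overlap, and the members' share lay below that of the whole list and near that of promoter peaks. Of the 35 protein-coding promoter peaks in the DNMT1-KO list, 22 held a motif (62.9%, 44.9 to 78.5), and 20 of these 22 overlapped a WT peak. The other two were at DPP9 and HNRNPA0. The share of promoter peaks with a motif was thus close in both lists.

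Overlap moved with the strength of the WT peak. It was found for 2 of 53 members with a pileup of up to 20, 4 of 122 with 21 to 30, 5 of 62 with 31 to 40 and 11 of 39 above 40 (28.2%, 15.0 to 44.9). Peaks without a motif gave 0 of 44, 2 of 70, 3 of 36 and 2 of 11 in the same classes. Of the 19 members with a pileup of at least 50, 9 had a DNMT1-KO peak. By length, from the shortest class to the longest, 1 of 31, 3 of 98, 6 of 81 and 12 of 66 members were shared, beside 1 of 31, 2 of 64, 0 of 43 and 4 of 23 peaks without a motif. The class above 450 and up to 600 bp was the one in which the values stood apart, and there 0 of 43 (exact interval up to 8.22%, and up to 6.98% by the limit of 3 counts) stood beside 7.41% of members (2.77 to 15.4), whose interval overlaps it. Motif number moved the same way as pileup and length: 10 of 149 members with 1 motif were shared, 5 of 68 with 2 and 7 of 59 with 3 or more. Its part apart from pileup and length was not tested.

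The 22 shared members had a median WT pileup of 42.5 and a median length of 668.5 bp, against 26 and 452.5 bp for the 254 unshared members. Their GC content was lower (median 60.8 against 64.9%), and their CpG ratio was 0.748 against 0.777. GC content outside motifs also fell with length among the members, as given above, and length was not held fixed here. CpG-island-like intervals numbered 17 of 22 (77.3%, 54.6 to 92.2) against 225 of 254 (88.6%). At least 1 CpG lay in 47 of their 50 motifs (94.0%, 83.5 to 98.8) and in 429 of 476 motifs of unshared members (90.1%, 87.1 to 92.7). Non-template motifs made up 19 of 37 (51.4%, 34.4 to 68.1) and 231 of 389 (59.4%, 54.3 to 64.3). The intervals of these 3 shares overlap between shared and unshared members. In 18 of the 22 a motif lay fully inside the DNMT1-KO interval as well. The summits of both libraries fell within 10 bp of each other in 8 and within 200 bp in 20.

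The pileup was lower in DNMT1-KO than in WT at 21 of the 22 shared members, with a median log2 ratio of -0.53 (-1.21 to 0.14). The local background was lower too, at 21 of 22, with a median log2 ratio of -0.68, or a median ratio of 0.627. Fold enrichment, which sets the fragments against the local background, was higher in DNMT1-KO at 7 of the 22 (ENSA, IBA57, GART, RNF31, MYO9A, ANGEL2 and TMBIM6) and lower at the others, with a median log2 ratio of -0.10 (-0.53 to 0.56). In ENSA it was 11.4 in WT and 13.3 in DNMT1-KO, and in IBA57 4.73 and 6.95. The total depth of the libraries is unknown from the peak lists and the use of a control is not known, so neither a pileup ratio of 1 nor the background ratio is established as the value for no difference, and a difference of depth and a difference at these sites cannot be told apart. DNMT1-KO peaks were called within their own library, so members without a DNMT1-KO peak are those not called, and not those shown to lack signal. Intervals below are exact and cover counting error only, since PCR copies without molecular identifiers are not independent molecules.

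Of the 4 highest WT pileups among the members, 3 were at shared members. GGPS1, whose promoter faces that of the chromatin gene ARID4B, had 115 fragments in WT and 51 in DNMT1-KO, a ratio of 0.443 (0.312 to 0.622). FBRS had 102 and 46, a ratio of 0.451 (0.311 to 0.645). TOMM40, with the motif shown above at its summit, had 90 and 62, a ratio of 0.689 (0.490 to 0.963). These 3 stood first in both libraries among the shared members, in a different order.

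The histone acetyltransferase gene KAT6B had 52 fragments in WT and 25 in DNMT1-KO, a ratio of 0.481 (0.286 to 0.789), and neither of its 2 motifs lay inside the DNMT1-KO interval, which reached farther to one side and held 2 other motifs. HNRNPA1, which encodes an RNA-binding splicing regulator, at a promoter that faces CBX5 (heterochromatin protein 1 alpha), had 51 and 22, a ratio of 0.431 (0.249 to 0.724). CELF5, with its 9 template motifs, had 63 and 34, a ratio of 0.540 (0.345 to 0.832). The RNA-binding protein gene RALY had 21 and 20, a ratio of 0.952 (0.490 to 1.85). The intervals of all 4 ratios include the median background ratio.

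NDUFA11, a subunit of respiratory complex I, had 62 fragments in WT and 43 in DNMT1-KO (ratio 0.694, 0.459 to 1.04). IBA57, which acts in iron-sulfur cluster assembly, had 45 and 33 (0.733, 0.453 to 1.18). SLC25A6, an ADP/ATP carrier of the inner membrane, had 38 and 21 (0.553, 0.308 to 0.966). That gene lies in the pseudoautosomal region, which the reference holds in more than 1 copy, so the placing of its reads is uncertain.

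ENSA had 52 fragments in WT and 44 in DNMT1-KO (ratio 0.846, 0.553 to 1.29). ZDHHC5 had 50 and 26 (0.520, 0.311 to 0.851), and PLAUR, which holds 3 non-template motifs, had 48 and 25 (0.521, 0.308 to 0.862). ACTR1A had 35 and 27 (0.771, 0.449 to 1.31). MYO9A, an unconventional myosin, had 24 and 18 (0.750, 0.384 to 1.44). PPM1B, a metal-dependent protein phosphatase, had 29 and 22 (0.759, 0.415 to 1.37). TMBIM6, an endoplasmic reticulum protein that restrains cell death, was the only shared member with more fragments in DNMT1-KO, 22 against 20 in WT (1.10, 0.573 to 2.12).

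The remaining 5 were SPAG7, GART (an enzyme of purine synthesis, facing the splicing gene SON), ANKHD1, RNF31 (a subunit of the linear ubiquitin ligase complex, facing the proteasome activator gene PSME2) and ANGEL2. SPAG7 had 40 fragments in WT and 34 in DNMT1-KO, GART 38 and 25, and RNF31 27 and 21. ANGEL2 had 20 and 18. ANKHD1 had 32 and 16, a ratio of 0.500 (0.256 to 0.938). Against the median background ratio of 0.627, the interval of the pileup ratio lay wholly below at 1 of the 22 shared members, GGPS1, and wholly above at 0. The local background at GGPS1 itself was 10.3 in WT and 4.46 in DNMT1-KO, and its fold enrichment was 10.3 and 9.53. Against a ratio of 1, the interval of the pileup ratio excluded that value at 10 of the 22.

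**Figure D4:**
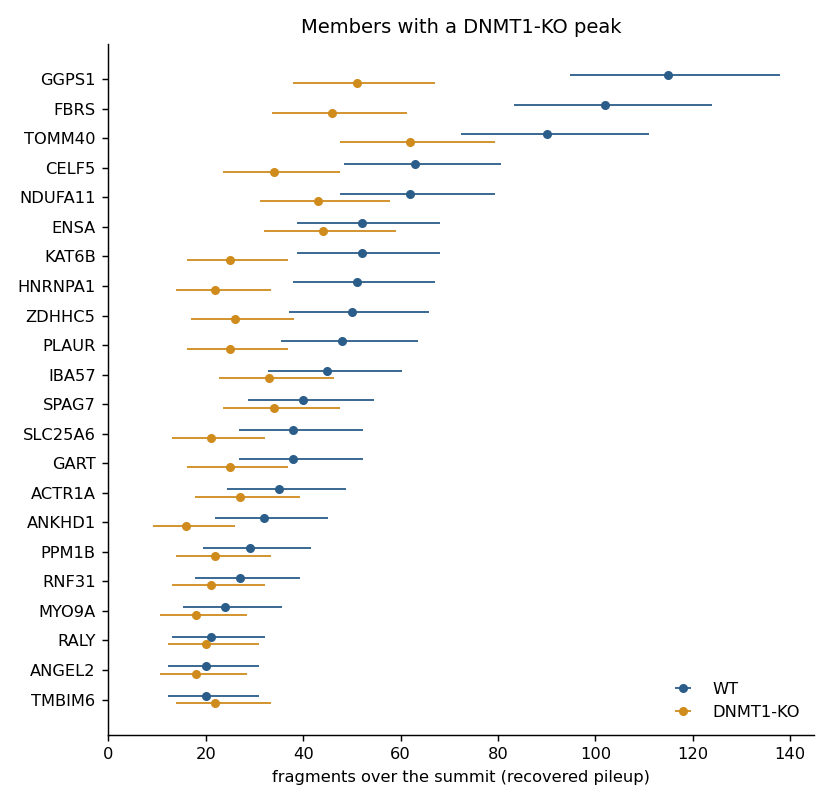
Fragments over the summit (recovered pileup) in WT (blue) and DNMT1-KO (orange) at the 22 members with a DNMT1-KO peak, ordered by WT pileup. Points are values from 1 deposited list per genotype and bars are exact 95% Poisson intervals, which cover counting error only. The WT point lies to the right of the DNMT1-KO point for every gene except TMBIM6.

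Among the 254 members with no DNMT1-KO peak, the highest WT pileups were those of BRD2 (94), WIZ (70), CDC42EP1 (67), SERBP1 (63), FSTL3 (54), B3GALNT2 (53) and SRCAP (53). HDGFL2, MAZ and PTMA each had 50. WIZ is a zinc finger partner of histone methyltransferases, SRCAP a chromatin remodeller, and MAZ a zinc finger factor that binds G-rich DNA. The 3 highest stood on WT backgrounds of 21.7, 14.7 and 14.1 fragments and had fold enrichments of 4.18 to 4.52, whereas FSTL3 had a background of 4.87 and a fold enrichment of 9.36. These 10 were picked by pileup after the values were seen. The DNMT1-KO pileup at these promoters was not analysed here.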

How the data were processed

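The G4 CUT&Tag peaks of 2 HEK293T samples, WT and DNMT1-KO, were used. According to the submitters' processing notes and the study's methods, reads were trimmed with Trim Galore 0.6.7, aligned to hg38 with Bowtie2 2.4.5, freed of duplicates with Picard, and called with MACS2 2.2.7.1; the methods name another MACS2 version. Per the study, signal tracks were made from merged replicates, and IgG signal served as background in its comparison of chromosomes; whether either applied to these lists is not given in the sources used here. Per the deposited lists, each peak has a fold enrichment (a ratio computed by the authors' peak caller within a library), p- and q-values as −log10 p-value and −log10 q-value, and a score. The deposited score was not used.

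Peaks were matched to GENCODE release 44 start sites on hg38, and 5 mitochondrial WT peaks were left out. Motifs were searched on both strands and joined when they overlapped. Pileup and background were solved from the deposited fold enrichment and −log10 p-value (MACS2 pseudocount 1, relative tolerance 0.1% of the p-value); all 276 members gave whole pileups. Motif search and recovery were tested on simulated data, 500 cases each, with 100% right. Shares carry exact Clopper-Pearson 95% intervals, which treat peaks or motifs as independent; medians are given with ranges. Ratios of pileups carry exact conditional binomial intervals. Python 3.11.15, scipy 1.17.1, pandas 2.3.3 and pysam 0.24.0 were used. Pseudoautosomal genes were counted once, on X. No test was made, since each genotype has 1 list. The members and gene lists were chosen with earlier results of these data known. Genes were named by rule: shared members, the 10 of highest fold enrichment, the 5 with most motifs, list members (all up to 8, otherwise the 5 of highest fold enrichment) and neighbours of the 1 kb limit; others are said to have been picked after their values were seen, or are examples of a printed sequence. A few items that the rule names are not reported here. Alternatives changed loop length, promoter distance, transcripts, peak strength, motif position, overlap and motif counting.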

Additional observations from a re-analysis of the deposited data

How the results depend on the processing

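Of 58 values recomputed under alternatives, 51 stayed within the 95% interval of the reported value (within 1.5 times for the number of members), 7 moved beyond it and 0 changed sign. A minimum fold enrichment set at the WT list's median (6.50) left 132 members, with 12.9% overlapping a DNMT1-KO peak and a median motif-free CpG ratio of 0.768. A −log10 q-value of at least 10 left 179 members. Requiring a motif fully within 100 bp of the summit left 147 members, of which 59.0% with a single gene orientation had a non-template motif; fewer motifs per member enter this share by construction. With canonical transcripts only, 91.8% of members were CpG-island-like. What caused any of these shifts, that of the non-template share included, was not tested. Low pileups limit all values for single members: at 20 fragments the exact interval runs from 12.2 to 30.9. No paired analysis was possible because each genotype has a single peak list, and no replicate could be left out.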
